A study of Mus musculus with 8 samples.

Results

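The 10 genes described here encode parts of the renin-angiotensin system and the receptors for natriuretic peptides, and were taken from the 28295 genes of the deposited table by their symbols. They are the angiotensin precursor Agt, the peptidase genes Ace, Enpep and Mme, the receptor genes Agtr1a, Agtr2 and Atp6ap2, and the natriuretic peptide receptor genes Npr1, Npr2 and Npr3. Expression was measured by poly(A) RNA sequencing of epididymal white fat from male mice that had eaten a Western diet for 8 weeks and then fasted for 6 h. The KO group (4 libraries, KO1 to KO4) was AdipoQ-Cre;Cul3-flox/flox, in which Cre is driven by the promoter of the adiponectin gene and so acts in adipocytes and not in the other cells of fat. The WT group (4 libraries, WT1 to WT4) was Cul3-flox/flox, so both groups carried the floxed alleles and only the KO group carried Cre. The age and strain background of the mice are not given in the sources used here, and the labels name mice without saying which library came from which animal. Values are FPKM (fragments scaled to the length of a gene in kilobases and to library size in units of 1000000 fragments), so levels of different genes can be compared per length.

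The renin-angiotensin system starts from angiotensinogen, which renin cuts to angiotensin I and angiotensin-converting enzyme then cuts to the pressor peptide angiotensin II. Liver is the main source of angiotensinogen, and adipocytes also make it. Natriuretic peptides from the heart act on adipocytes through the guanylyl cyclase receptor encoded by Npr1, whose cGMP drives lipolysis, while the receptor encoded by Npr3 takes the peptides up and clears them. The balance of these receptors is known to set how strongly fat responds to natriuretic peptides.

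Cul3 itself, which encodes the ubiquitin ligase scaffold cullin 3, was not lower in the KO-labelled libraries. It averaged 12.0 ± 1.28 FPKM in KO-labelled and 11.2 ± 1.13 FPKM in WT libraries (SD, n = 4 each; limma adjusted p = 0.520). Gene-level values sum over exons inside and outside the floxed region and over cells without Cre, so they do not check the labels, and every direction below rests on those labels. The depth recovered from the FPKM steps was 15.2 to 18.7 M reads (M, units of 1000000) in listed genes in KO-labelled libraries and 17.7 to 19.7 M in WT libraries. Libraries WT1 and WT2 held more hepatocyte transcripts than the others, and WT4 more macrophage transcripts than the other WT libraries. Markers of adipocytes were abundant in all 8 libraries, with Adipoq at 269.6 to 375 FPKM in KO-labelled and 452 to 745 FPKM in WT libraries.

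The RefSeq sequence upstream of the transcription start (build GRCm38.p6, coding strand, 5′ to 3′) is shown for Npr3, Npr1 and Agt, whose values are described most fully below. Npr3 and Npr1 were both lower in KO-labelled fat, and the value of Agt turned on 1 library. Of the 10 members, 9 had an entry, and Agtr1a had none. Each run is the 250 bases before the start, and capitals mark matches, on either strand, to the TATA box motif TATAAA, the CCAAT box and the GC box motif GGGCGG.
Npr3 (chr15:11907372-11907621, minus strand): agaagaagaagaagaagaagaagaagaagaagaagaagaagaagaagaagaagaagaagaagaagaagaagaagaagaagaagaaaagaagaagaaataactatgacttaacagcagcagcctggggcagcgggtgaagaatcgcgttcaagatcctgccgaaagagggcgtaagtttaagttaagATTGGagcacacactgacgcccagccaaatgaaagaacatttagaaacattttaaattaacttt
Npr1 (chr3:90465867-90466116, minus strand): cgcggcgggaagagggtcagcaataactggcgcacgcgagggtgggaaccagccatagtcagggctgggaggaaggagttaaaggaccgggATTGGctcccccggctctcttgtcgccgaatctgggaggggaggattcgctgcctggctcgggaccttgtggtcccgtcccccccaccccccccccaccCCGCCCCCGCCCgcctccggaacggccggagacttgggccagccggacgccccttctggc
Agt (chr8:124569707-124569956, minus strand): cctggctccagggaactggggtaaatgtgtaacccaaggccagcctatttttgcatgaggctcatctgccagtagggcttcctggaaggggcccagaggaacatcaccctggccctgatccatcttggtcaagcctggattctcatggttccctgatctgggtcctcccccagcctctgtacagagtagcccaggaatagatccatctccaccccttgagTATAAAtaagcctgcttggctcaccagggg
The Npr3 window held CCAAT on the opposite strand, 64 bases upstream of the start, and began with a long GAA repeat. The Npr1 window held CCAAT 159 bases upstream and GGGCGG at 60 and 54 bases upstream, all on the opposite strand. The Agt window held TATAAA 30 bases upstream. Of the 32851 upstream windows in the RefSeq table, 12.4% held TATAAA, 33.8% held CCAAT and 32.7% held GGGCGG. Also searched on both strands were the E-box CACGTG, found in 6.02% of windows, the nuclear receptor half-site AGGTCA, found in 14.02%, and the antioxidant response element TGACNNNGC, found in 10.2%, and none of these letters was in the 3 windows shown.

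Npr3, Npr1 and Agtr1a were lower in KO-labelled fat, at 0.499, 0.640 and 0.562 times the WT mean FPKM. The test was limma on log2(FPKM + 0.5) across the 14400 genes with a mean of at least 0.5 FPKM, with a call where the adjusted p was under 0.05. Of the 10 members, 9 passed this filter, 3 were called lower and none higher, and 6 had no call. The list's median log2 fold change was -0.33, against -0.02 over all genes tested. Over all genes tested, 30.4% were called, 18.6% lower and 11.7% higher, so 3 calls in 9 members is close to the share in the table at large. The 3 called members were also the only ones whose groups did not overlap in FPKM, a state found in 31.2% of tested genes and, with KO-labelled below WT, in 19.1%. At an unadjusted p under 0.05, 5 members were lower and 0 higher, against 42.8% of all tested genes, 25% lower and 17.8% higher, and limma-voom on the recovered reads called 4 lower and 0 higher.

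**Figure D1:**
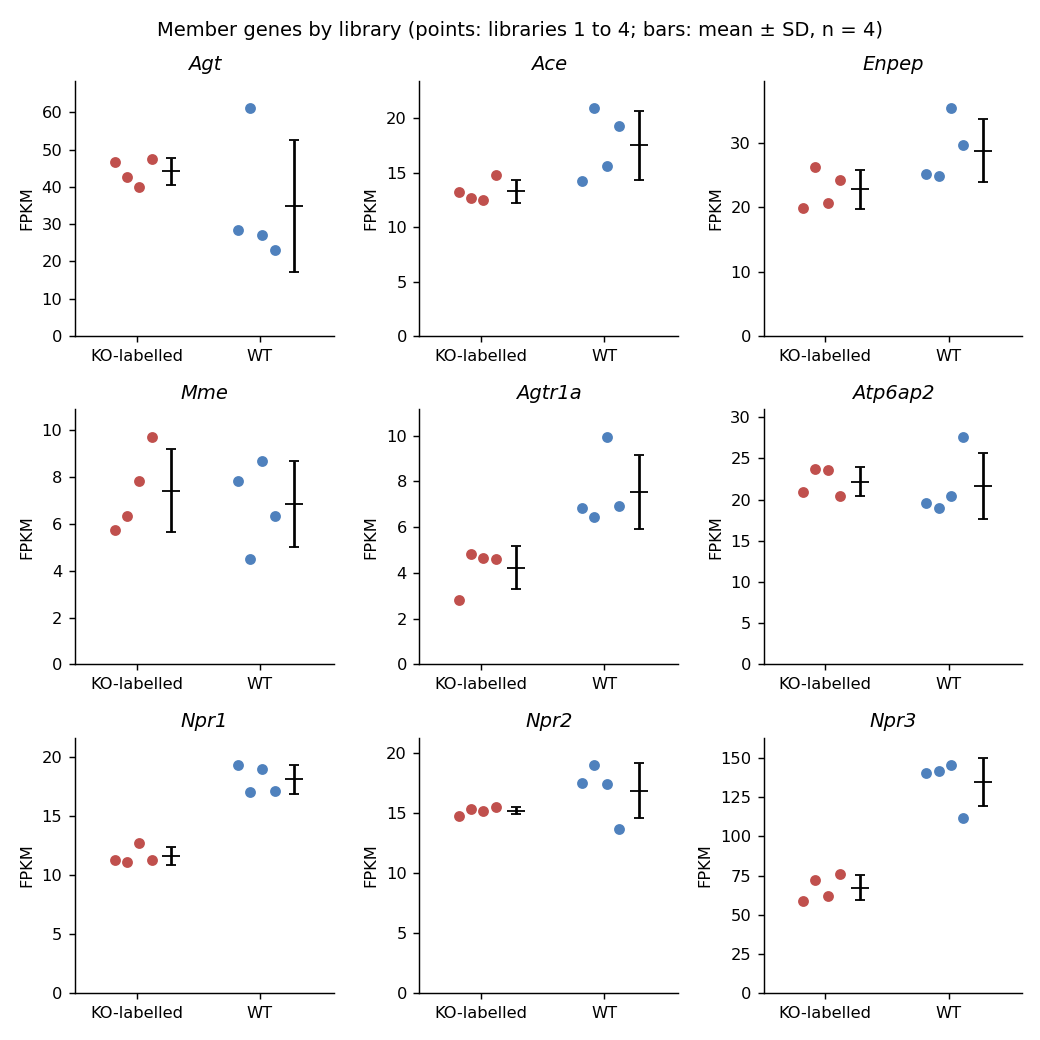
FPKM of the 9 members above the filter in each library, KO-labelled on the left and WT on the right of each panel, with points for libraries 1 to 4 and bars for the mean ± SD (n = 4). Npr3, Npr1 and Agtr1a show no overlap between groups, and Agt in WT2 stands at 61.1 FPKM above 3 WT libraries at 23.0 to 28.3 FPKM.

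Npr3 (ENSMUSG00000022206, GRCm38 chromosome 15, 11839896 to 11907287), the clearance receptor, was the most abundant member in both groups. It measured 59.0, 72.1, 61.7 and 76.0 FPKM in KO1 to KO4, against 140.3, 142, 145 and 112 FPKM in WT1 to WT4. All KO-labelled libraries lay below all WT libraries, and WT4 was the lowest of its group. The means were 67.2 ± 8.14 FPKM in KO-labelled and 135 ± 15.6 FPKM in WT libraries (SD, n = 4 each), from 14031 to 17663 and 25775 to 33578 recovered reads. Its log2 fold change came to -1.0 ± 0.12 (SE), with a 95% interval of -1.28 to -0.72 (limma adjusted p = 0.000716). Gm5144 on the opposite strand overlapped 3.42% of the Npr3 exon bases and reached at most 3.88 FPKM. Markers of adipocytes fell beside it. All 7 listed adipocyte markers were lower with a median log2 fold change of -0.98, and their summed level was 1560 to 2256 FPKM in KO-labelled and 3855 to 5235 FPKM in WT libraries. Their part in the fall of Npr3 was not tested, and in bulk tissue fewer cells of a type cannot be told apart from less RNA per cell.

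Npr1 (ENSMUSG00000027931, chromosome 3, 90450591 to 90465866), the guanylyl cyclase receptor for atrial and B-type natriuretic peptide, was lower as well. Its level was 11.2, 11.0, 12.7 and 11.3 FPKM in KO1 to KO4, against 19.3, 17.0, 18.9 and 17.1 FPKM in WT1 to WT4. The groups were well apart, with the highest KO-labelled library, KO3, below the lowest WT library, WT2. The log2 fold change was -0.62 ± 0.08, with a 95% interval of -0.80 to -0.45 (limma adjusted p = 0.000716). An antisense-strand gene, Gm16048, overlapped 11.7% of the Npr1 exon bases but reached at most 0.526 FPKM in any library. All 6 listed endothelial markers (median log2 fold change -0.75) and all 7 adipocyte markers (median -0.98) were lower too. Their part in the fall of Npr1 was not tested.

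Npr2 (ENSMUSG00000028469, chromosome 4, 43631935 to 43651244) encodes the cyclase receptor for C-type natriuretic peptide. It measured 14.8, 15.3, 15.1 and 15.5 FPKM in KO1 to KO4, against 17.4, 19.0, 17.4 and 13.6 FPKM in WT1 to WT4. The KO-labelled libraries were nearly alike, and the WT libraries lay both above and below them because WT4 was low. The log2 fold change was -0.14 ± 0.10, with a 95% interval of -0.36 to 0.09 (limma adjusted p = 0.337). Without WT4 it was -0.23 (adjusted p = 0.0371), and scaled to a sum of 1000000 per library it was 0.13 (adjusted p = 0.264). WT4 also had the highest summed macrophage markers of all WT libraries, at 309.6 FPKM against 82.8 to 103 FPKM in WT1 to WT3. The same markers summed to 307, 335, 249 and 144 FPKM in KO1 to KO4. The part of macrophages in the Npr2 values was not tested. The gene Gm12473 on the opposite strand overlapped 5.70% of the Npr2 exon bases and reached 9.80 FPKM.

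The ratio of receptors within a library does not depend on how libraries are scaled. Npr1 to Npr3 was 0.191, 0.153, 0.206 and 0.148 in KO1 to KO4, against 0.137, 0.120, 0.130 and 0.153 in WT1 to WT4. The groups met in the middle, where KO2 and KO4 lay at the level of WT4. The mean ratio was 0.174 ± 0.0280 in KO-labelled and 0.135 ± 0.0139 in WT libraries (SD, n = 4 each), a log2 difference of 0.36 (exact two-sided permutation test, p = 0.0571, where 4 against 4 can reach 0.0286). Npr2 to Npr3 separated the groups fully, at 0.250, 0.213, 0.245 and 0.204 in KO1 to KO4, against 0.124, 0.134, 0.119 and 0.122 in WT1 to WT4. Its log2 difference was 0.87 (exact two-sided permutation test, p = 0.0286, the lowest value possible for 4 against 4). Npr3 alone already separated the groups (log2 fold change -1.0) and Npr2 moved little (-0.14), so this separation adds little beyond Npr3. The ratio planned was Npr1 to Npr3, and Npr2 to Npr3 was an alternative to it. Clearance receptor transcript was lower relative to Npr2 in every KO-labelled library, whereas relative to Npr1 the difference did not pass the test.

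**Figure D2:**
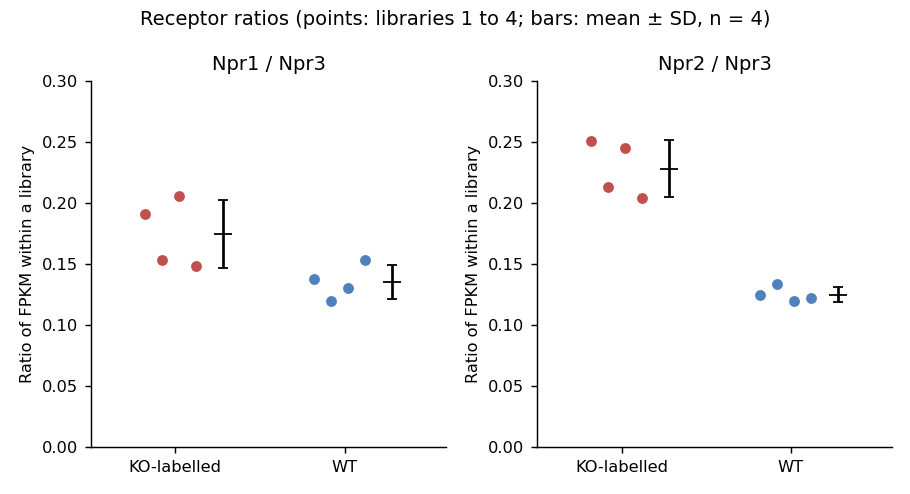
Ratio of Npr1 to Npr3 (left panel) and Npr2 to Npr3 (right panel) FPKM within each library, KO-labelled on the left and WT on the right of each panel, with the mean ± SD (n = 4). The KO-labelled Npr2 to Npr3 ratios, 0.204 to 0.250, all lie above the WT ratios of 0.119 to 0.134, while the Npr1 to Npr3 ratios overlap.

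Agt (ENSMUSG00000031980, chromosome 8, 124556534 to 124569706), the precursor of all angiotensin peptides, was the second most abundant member by mean over all 4 libraries of a group. In WT this order rested on WT2, without which the mean was 26.2 FPKM for Agt and 30.1 FPKM for Enpep. It measured 46.7, 42.7, 39.9 and 47.6 FPKM in KO1 to KO4, against 28.3, 61.1, 27.2 and 23.0 FPKM in WT1 to WT4. The KO-labelled libraries lay above WT1, WT3 and WT4 and below WT2. With all 8 libraries the log2 fold change was 0.44 ± 0.27, with a 95% interval of -0.17 to 1.06 (limma adjusted p = 0.242). Without WT2 the means were 44.2 FPKM in KO-labelled and 26.2 ± 2.77 FPKM in WT libraries (SD, n = 3), a ratio of 1.69 and a log2 fold change of 0.75 ± 0.11 (limma adjusted p = 0.00304), in a fit that called 8.97% of genes higher. WT2 held the highest Agt value of its group, and with it the WT SD was 17.6 FPKM. Singling out fits without WT2 follows the tested value itself, so their p-values for Agt are biased low. Leaving out both WT1 and WT2 gave 0.81 (adjusted p = 0.0109), and all 8 libraries put on a common FPKM sum gave 0.72 (adjusted p = 0.0466). Over the 21 alternatives tried, its adjusted p ran from 0.00304 to 0.575.

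WT2 had both the highest hepatocyte marker sum and the highest Agt level of the 8 libraries. The 10 hepatocyte markers summed to 21.8, 11.1, 8.00 and 11.0 FPKM in KO1 to KO4, against 142, 514, 39.7 and 20.8 FPKM in WT1 to WT4. Alb, the gene of serum albumin, stood at 9.74, 3.52, 2.82 and 5.04 FPKM in KO1 to KO4, against 49.96, 104, 13.3 and 6.55 FPKM in WT1 to WT4. WT1 held more hepatocyte transcript than WT3 and WT4, with Agt at 28.3 FPKM in WT1 against 27.2 FPKM in WT3 and 23.0 FPKM in WT4. The part of hepatocyte RNA in the Agt value of WT2 was not tested.

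**Figure D3:**
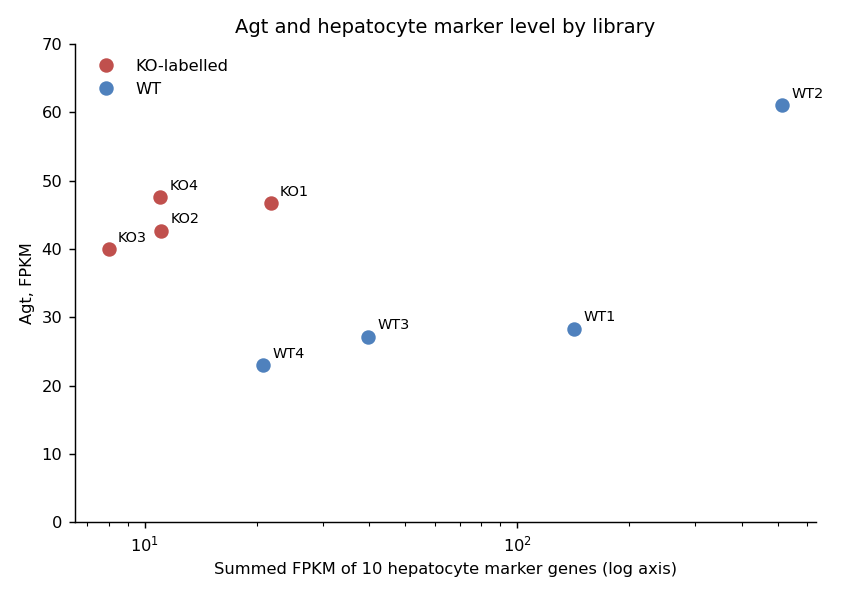
Agt FPKM against the summed FPKM of 10 hepatocyte markers (log axis) for each KO-labelled and WT library. WT2 combines the highest marker sum, 514 FPKM, with the highest Agt level, 61.1 FPKM, while WT1 at 142 FPKM has an Agt level of 28.3 FPKM, below the 39.9 to 47.6 FPKM of the KO-labelled libraries.

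Ace (ENSMUSG00000020681, chromosome 11, 105967945 to 105989964), the angiotensin-converting enzyme of endothelium, narrowly missed the threshold. It measured 13.2, 12.7, 12.4 and 14.8 FPKM in KO1 to KO4, against 14.2, 20.9, 15.6 and 19.3 FPKM in WT1 to WT4. Only KO4 reached into the WT range, above WT1. The log2 fold change was -0.37 ± 0.13, with a 95% interval of -0.66 to -0.08 (limma adjusted p = 0.0550). It was called lower without WT1 (-0.46, adjusted p = 0.0312) and when limma-voom was run on recovered reads (-0.38, adjusted p = 0.0400). Over the 21 alternatives its adjusted p ran from 0.0312 to 0.531. Gm11651, on the opposite strand over 5.58% of the Ace exon bases, reached at most 0.0541 FPKM. All 6 listed endothelial markers were lower (median -0.75), and their summed level was 111 to 132 FPKM in KO-labelled and 165 to 235 FPKM in WT libraries. Testis and epididymis, which also express Ace, left traces in some libraries. The 7 epididymis markers fixed, of which 5 were in the table, summed to 214 FPKM in KO1 and 53.1 FPKM in WT2 and to at most 8.43 FPKM elsewhere. The 6 germ cell markers summed to 35.1 FPKM in KO3 and at most 5.99 FPKM elsewhere. The part of these cell types in the Ace values was not tested.

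Enpep and Mme encode peptidases that break angiotensins down, aminopeptidase A, which removes the first residue of angiotensin II, and neprilysin, which also degrades natriuretic peptides. Enpep (chromosome 3, 129269175 to 129332720) measured 19.9, 26.3, 20.7 and 24.3 FPKM in KO1 to KO4, against 25.2, 24.9, 35.4 and 29.6 FPKM in WT1 to WT4. Its groups overlapped through KO2, and the log2 fold change of -0.33 ± 0.14 did not pass (95% interval -0.64 to -0.01, limma adjusted p = 0.104). Mme (chromosome 3, 63241537 to 63386030) measured 5.75, 6.34, 7.85 and 9.71 FPKM in KO1 to KO4, against 7.83, 4.52, 8.70 and 6.34 FPKM in WT1 to WT4. The libraries of both groups were mixed along the whole range, with a log2 fold change of 0.12 ± 0.21 (95% interval -0.37 to 0.61, limma adjusted p = 0.705).

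Agtr1a (ENSMUSG00000049115, chromosome 13, 30336441 to 30382867), the main receptor through which angiotensin II acts on vessels, was lower in KO-labelled fat. It measured 2.81, 4.83, 4.67 and 4.62 FPKM in KO1 to KO4, against 6.81, 6.46, 9.94 and 6.93 FPKM in WT1 to WT4. The groups did not overlap, although KO1 was low and WT3 high within their groups. The means were 4.23 ± 0.954 FPKM in KO-labelled and 7.54 ± 1.62 FPKM in WT libraries (SD, n = 4 each), from 228 to 330 and 431 to 635 recovered reads. Its log2 fold change came to -0.77 ± 0.18, with a 95% interval of -1.19 to -0.35 (limma adjusted p = 0.0150). This call did not hold once each library was put on a common FPKM sum (-0.56, adjusted p = 0.0720) or when WT1 and WT2 were both left out (-0.92, adjusted p = 0.0521). Of 6 smooth muscle and pericyte markers, cell types that carry this receptor, 2 were called higher and none lower, and limma-voom called 1 lower. The shares over all tested genes were 11.7% higher and 18.6% lower. By sign the 6 markers were mixed, with a median log2 fold change of 0.03. Cnn1 (1.79), Myh11 (0.78) and Tagln (0.33) were positive, and Acta2 (-0.43), Pdgfrb (-0.34) and Rgs5 (-0.27) negative. Their summed level was 146 to 167 FPKM in KO-labelled and 152 to 241 FPKM in WT libraries. All 7 listed adipocyte markers (median -0.98) and all 6 endothelial markers (median -0.75) were lower. The part of these cell types in the Agtr1a values was not tested.

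Agtr2 (ENSMUSG00000068122, chromosome X, 21484544 to 21489164), the second angiotensin II receptor, was at 0 reads in all libraries but WT4, which had 2. At this depth 3 reads correspond to 0.0310 to 0.0372 FPKM in KO-labelled and 0.0354 to 0.0393 FPKM in WT libraries, so both groups were under that limit and no fold is given. Atp6ap2 (ENSMUSG00000031007, chromosome X, 12587801 to 12617049), the prorenin receptor and an accessory protein of the vacuolar proton pump, measured 20.9, 23.7, 23.6 and 20.4 FPKM in KO1 to KO4, against 19.6, 19.0, 20.5 and 27.6 FPKM in WT1 to WT4. The WT range, widened by WT4, enclosed all KO-labelled values, and the log2 fold change was 0.05 ± 0.13 (95% interval -0.24 to 0.33, limma adjusted p = 0.804).

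**Figure D4:**
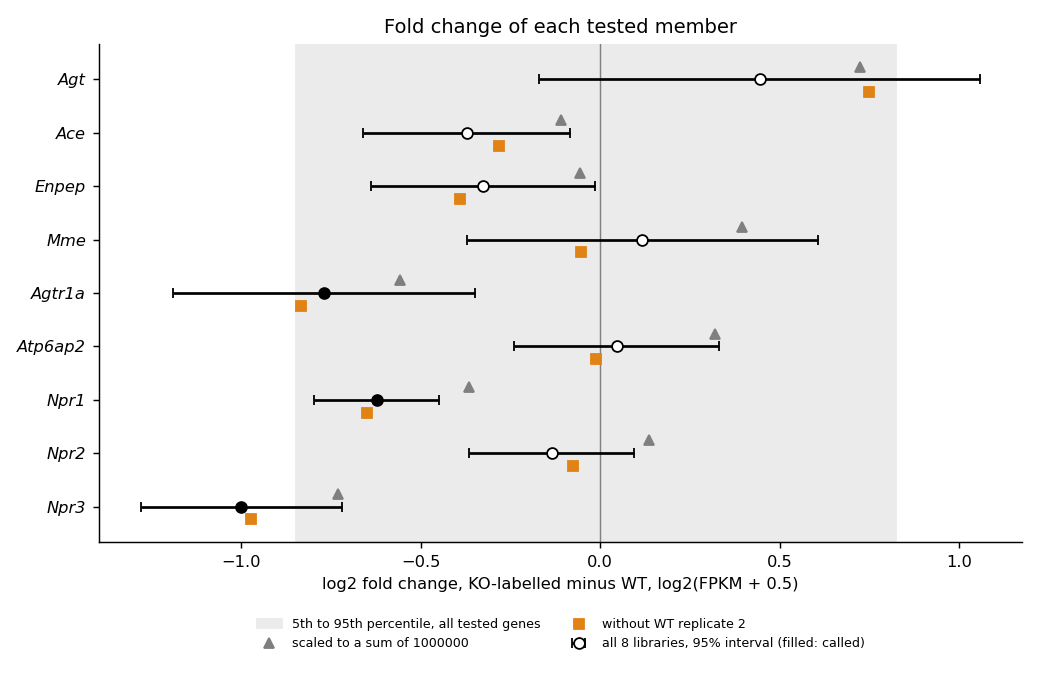
Log2 fold change, KO-labelled minus WT on the log2(FPKM + 0.5) scale, of each tested member with its 95% interval (circles, filled where called), beside the value scaled to a sum of 1000000 (triangles) and without WT2 (squares). The grey band spans the 5th to 95th percentile of all tested genes in the fit shown by circles, -0.85 to 0.82, and the Npr3 circle at -1.0 lies outside it. No band is drawn for the triangles or squares, and in the fit of the triangles the median of all genes was 0.24.

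Levels per length set the members in nearly the same order in both groups. Npr3 came first and Agt second (in WT only with WT2 included), at a mean of 67.2 and 44.2 FPKM in KO-labelled libraries and 135 and 34.9 FPKM in WT libraries. In KO-labelled fat Enpep and Atp6ap2 followed, then Npr2, Ace, Npr1, Mme and Agtr1a, and the neighbours Enpep and Atp6ap2, Npr2 and Ace, and Ace and Npr1 overlapped in range. In WT fat the order after Agt was Enpep, Atp6ap2, Npr1, Ace, Npr2, Agtr1a and Mme, where of these neighbours, Agt and Enpep included, only Npr2 and Agtr1a were separate in range. Npr3 stood above 97.6% of tested genes in KO-labelled and 98.8% in WT libraries by mean FPKM, and Agtr1a above 52.7% and 69.0%.

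Genes with patterns closest to Npr3 over the 8 libraries, by root mean square difference of centred log2(FPKM + 0.5), were Tmem135 (0.0631), Tuba1b (0.0725) and Mocs2 (0.0770), with log2 fold changes of -1.02, -1.04 and -0.98. Those closest to Agtr1a were Pde4b (0.137), Hipk2 (0.138) and Hnmt (0.145), with log2 fold changes of -0.74, -0.81 and -0.72. The match was looser for Agtr1a than for Npr3.

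Other enzymes that make or break angiotensins moved in both directions. Of 16 listed genes, 15 were in the table and 12 were tested, of which 3 rose and 3 fell, with a median log2 fold change of -0.09. Of all tested genes, 11.7% were called higher and 18.6% lower. The 3 that rose are mast cell proteases. Mcpt4, a chymase that can form angiotensin II without converting enzyme, measured 8.46, 7.47, 9.20 and 6.71 FPKM in KO1 to KO4, against 0.673, 1.36, 0.866 and 1.14 FPKM in WT1 to WT4. Every KO-labelled library lay above every WT library, with a log2 fold change of 2.50 ± 0.16 (limma adjusted p = 3.44e-05). The chymase gene Cma1 rose by 2.24 ± 0.27 (adjusted p = 0.000646) and the mast cell carboxypeptidase gene Cpa3 by 1.92 ± 0.19 (adjusted p = 0.000231). Of 6 mast cell markers chosen after the data were seen, 2 were tested and 1 was called. The tryptase gene Tpsb2 was higher by 2.48 ± 0.24, Kit had no call (0.16 ± 0.10), and the high-affinity IgE receptor gene Fcer1a was at 0.585 to 1.08 FPKM in KO-labelled and 0 to 0.0408 FPKM in WT libraries. In the fit without a filter, Fcer1a (limma adjusted p = 0.000646) and Tpsab1 (adjusted p = 0.00149) were called higher, and Hdc (adjusted p = 0.350) and Ms4a2 (adjusted p = 0.159) had no call. The share of all genes called in that fit is not given here. The 6 mast cell markers summed to 11.0 to 13.2 FPKM in KO-labelled and 2.20 to 4.16 FPKM in WT libraries, and their part in the protease values was not tested. Ctsd, the lysosomal aspartyl protease cathepsin D, fell by 0.98 ± 0.15 on the log2 scale (adjusted p = 0.00204). The falls of Ece1, the endothelin-converting enzyme, by 0.35 and of the oligopeptidase gene Nln by 0.28 are named after their values were seen. The Ece1 call held in 13 and the Nln call in 15 of 21 alternatives, and on a common FPKM sum they stood at -0.081 (adjusted p = 0.487) and -0.021 (adjusted p = 0.841).

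Renin itself (Ren1) was scarce and stayed under the filter. It had 66, 10, 23 and 30 recovered reads in KO1 to KO4, against 4, 11, 2 and 1 in WT1 to WT4, or 1.37, 0.246, 0.573 and 0.731 FPKM against 0.0947, 0.277, 0.0527 and 0.0245 FPKM. KO2 and WT2 were alike, and the other KO-labelled libraries lay above all WT libraries. In the fit without a filter the log2 fold change was 0.95 ± 0.27 and did not pass (limma adjusted p = 0.0543).

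Among 7 further receptors and receptor-binding proteins, 2 were tested and 1 rose, where 11.7% of all tested genes were called higher. Agtrap, which encodes a protein that promotes internalization of the type 1 angiotensin receptor, measured 9.83, 8.71, 7.07 and 6.46 FPKM in KO1 to KO4, against 4.94, 4.59, 4.98 and 6.30 FPKM in WT1 to WT4. The groups were separate but nearly met at KO4 and WT4, with a log2 fold change of 0.57 ± 0.14 (limma adjusted p = 0.0173), and without WT1 and WT2 the call was lost (0.46, adjusted p = 0.153). Nr3c2, the mineralocorticoid receptor gene, differed by -0.01 ± 0.12 (adjusted p = 0.954). Mas1, Agtr1b and the bradykinin receptor genes Bdkrb1 and Bdkrb2 were under the filter.

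Transcripts of the natriuretic peptides themselves were scarce. Nppa, Nppb and Nppc, which encode the atrial, B-type and C-type peptides, reached at most 0.158 FPKM in KO-labelled and 0.101 FPKM in WT libraries. Nppc had 2 to 4 recovered reads in each KO-labelled library and 0 in each WT library, and was called higher in the fit without a filter (limma adjusted p = 0.0253). In KO1, KO2 and KO4 it had 2 reads, under the limit of 3 reads, so this call rests on counts near 0 and no fold is given. The share of all genes called in the fit without a filter is not given here. Of the 3 tested processing genes, none was called by limma, and 0 had an unadjusted p under 0.05 or a call by limma-voom on the recovered reads. The highest were Ide, the insulin-degrading enzyme that also cleaves natriuretic peptides, at 12.0 ± 3.81 FPKM in KO-labelled and 12.6 ± 4.41 FPKM in WT libraries, and the proprotein convertase gene Pcsk6, at 10.5 ± 0.927 FPKM in KO-labelled and 12.0 ± 2.48 FPKM in WT libraries (SD, n = 4 each).

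Downstream of the cyclase receptors, 1 of 8 tested cGMP signalling genes was called, and it fell, where 18.6% of all tested genes were called lower. On a common FPKM sum the count was instead 2 higher, Pde3a (0.66) and Mrvi1 (0.54), and 0 lower. In that fit 29.3% of all genes were called higher and 8.26% lower, so neither count sets these genes apart. Pde3b, a phosphodiesterase of adipocytes that cGMP inhibits, measured 15.4, 18.4, 20.5 and 25.3 FPKM in KO1 to KO4, against 28.9, 30.3, 34.0 and 23.3 FPKM in WT1 to WT4. KO4 lay above WT4, and otherwise the KO-labelled libraries were lower, with a log2 fold change of -0.55 ± 0.16 (limma adjusted p = 0.0344). The call held in 10 of 21 alternatives and was lost without any of KO1, KO2, KO3, WT1, WT2 or WT3 (adjusted p = 0.0683 to 0.0846). Prkg1, the cGMP-dependent kinase gene, stayed under the filter at 0.312 to 0.471 FPKM in KO-labelled and 0.236 to 0.412 FPKM in WT libraries.

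Of 16 tested genes for other subunits of the proton pump that Atp6ap2 belongs to (V-ATPase genes), 9 fell, none rose and 7 had no call, with a median log2 fold change of -0.46 against -0.02 for all genes. Of all tested genes, 18.6% were called lower. Atp6v1e1 measured 17.2, 17.0, 14.5 and 16.1 FPKM in KO1 to KO4, against 32.7, 30.3, 28.3 and 27.2 FPKM in WT1 to WT4, a log2 fold change of -0.85 ± 0.09 (limma adjusted p = 0.000302). Atp6v1h (-0.57), Atp6v0d1 (-0.50) and Atp6v0e (-0.52) also fell. Scaled to a sum of 1000000, 2 of the 16 were called lower and none higher (median -0.20), and without WT1 and WT2 3 were called lower. The shares of all genes called lower in those fits were 8.26% and 7.19%. Of 6 markers of macrophages, another cell type rich in this pump, 3 were called higher and none lower, with a median log2 fold change of 1.22. Over all tested genes 11.7% were called higher. The macrophage markers summed to 144 to 335 FPKM in KO-labelled and 82.8 to 309.6 FPKM in WT libraries. All 7 listed adipocyte markers (median -0.98) and all 6 endothelial markers (median -0.75) were lower. The part of these cell types in the subunit values was not tested.

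**Figure D5:**
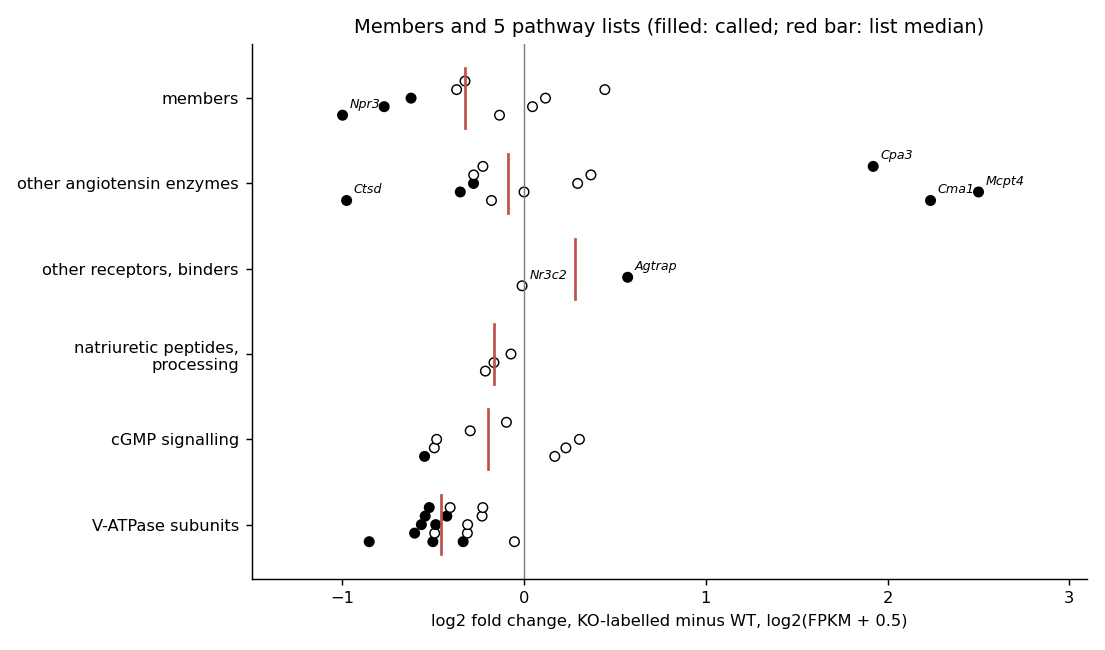
Log2 fold change, KO-labelled minus WT on the log2(FPKM + 0.5) scale, of the tested members and of the tested genes of 5 related lists, with 1 point per gene (filled where called) and a red bar at each list's median. The mast cell proteases Mcpt4, Cma1 and Cpa3 stand apart at 1.92 to 2.50, and all 16 V-ATPase subunits lie below 0.

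Calls in each direction shifted with the scale chosen. With every library put on a common FPKM sum of 1000000, the typical gene stood at a log2 fold change of 0.24, 37.6% of genes were called, 29.3% higher and 8.26% lower, and of the members Npr3 (-0.73) and Npr1 (-0.37) stayed called lower while Agt was called higher. Beside this, reads in listed genes made up 62.6% to 66.1% of the FPKM denominator in KO-labelled and 74.1% to 78.7% in WT libraries. Npr3 and Npr1 were called lower under all 21 alternatives.

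The members called under other settings are read against the calls among all genes there. Without WT2, where Agt was called higher and 3 members lower, 23.2% of genes were called, 8.97% higher and 14.3% lower. Without WT1, where Ace joined the 3 lower members, 20.5% were called, 7.56% higher and 13% lower. Without WT4, where Npr2 joined them, 32.9% were called, 13.5% higher and 19.5% lower. Without WT1 and WT2, where Agt was higher and 2 members lower, 12.2% were called, 5.01% higher and 7.19% lower. On recovered reads with limma-voom, where 4 members were lower, 32% of 14001 genes were called, 12.7% higher and 19.3% lower. Non-overlap with KO-labelled above WT was found in 12.1% of tested genes.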

How the data were processed

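Gene-level FPKM values of 4 KO-labelled and 4 WT libraries were deposited by the authors. Per the submitters' processing notes the tools were HISAT2 2.0.5 and featureCounts with the mm10 build, and the annotation release and strand setting are not given in the sources used here. Of 28295 gene IDs, 99.9% matched GENCODE M21. Whole reads were recovered from the FPKM steps and M21 exon lengths, and 97.9% of values of 0.5 to 200 reads lay within 0.02 of a whole number. The test was limma 3.58.1 in R 4.3.3, with trend and robust moderation, on log2(FPKM + 0.5) over genes with a mean of at least 0.5 FPKM, with Benjamini-Hochberg adjustment over all 14400 of them, in a script tested on simulated data. A fold change on this scale understates the change of low genes. Ratios were compared by two-sided exact permutation tests with scipy 1.17.1. The p-values measure the spread between these libraries. The members and all lists were chosen with earlier results of these data known, and the mast cell markers after the values here were seen. The text names every member, the 3 closest genes to Npr3 and Agtr1a by likeness, and listed pathway genes by a rule on calls, size and level. Counting without strand would not separate overlapping genes on opposite strands. Limits from 3 reads cover counting error only. Ren2, Mrgprd and Ostn were not analysed here.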

Additional observations from a re-analysis of the deposited data

Results flagged for a closer look

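In 10 of 46 groups of 4 libraries examined, 1 library stood apart from the other 3 by Dixon's criterion, and chance gives such a result in about 1 group in 20. Among the members, Agtr1a was low in KO1 at 2.81 FPKM and high in WT3 at 9.94 FPKM. Npr1 was high in KO3 at 12.7 FPKM. Npr3 was low in WT4 at 112 FPKM, and Agt was high in WT2 at 61.1 FPKM. Among the related genes, Cpa3 was low in KO1 at 2.65 FPKM and high in WT4 at 1.02 FPKM. Cma1 was high in KO3 at 8.94 FPKM, Pcsk6 low in KO1 at 9.15 FPKM and Ide high in WT3 at 19.2 FPKM.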

How the results depend on the processing

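Npr3 and Npr1 were called lower under all 21 alternatives. Scaled to a sum of 1000000, 4226 genes were called higher and 1190 lower (against 1689 and 2683), 1 member higher, 7 pathway genes higher and 3 lower (against 4 and 13), and Cul3 had a log2 fold change of 0.37 (limma adjusted p = 0.0477). Without WT1 and WT2 the counts were 722 and 1036 genes, 1 member higher and 5 pathway genes lower, and quantile normalization left 6 pathway genes lower. Without 1 library at a time, 1089 to 1937 genes were called higher (2026 without KO4 and WT4) and 1858 to 2803 lower, 0 to 1 members higher and 3 to 4 lower, and 4 to 5 pathway genes higher and 7 to 15 lower. The lowest counts came without WT1 (1089 genes higher, 8 pathway genes lower) and without KO3 (1117 and 7). Replicate numbers did not pair the libraries (correlations of same-numbered deviations -0.06, -0.13, 0.17 and -0.32). With the replicate block 1113 genes were called higher, Agtrap (adjusted p = 0.0643), Pde3b (adjusted p = 0.0869) and Nln (adjusted p = 0.0638) lost their calls, and no member's call changed. The log2 difference of Npr1 to Npr3 was 0.28 to 0.43 without 1 library at a time, and 0.87 for Npr2 to Npr3 in its place.

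Uncalled values changed sign. Atp6ap2 was -0.011 without WT2 and -0.10 without WT1 and WT2, in a range of -0.10 to 0.20 over settings that leave out libraries. Mme was -0.014 without KO4, -0.054 without WT2, -0.030 without WT1 and WT2 and -0.036 without KO4 and WT4, in a range of -0.054 to 0.24. Npr2 was 0.13 scaled to a sum of 1000000 and 0.034 with quantile normalization. Ide was 0.20 and 0.052 under those settings, 0.043 with array weights, 0.18 without KO1 and 0.14 without WT3, with -0.25 without KO4 and WT4 and a range of -0.33 to 0.18 over settings that leave out libraries. Pcsk6 was 0.10 scaled to a sum of 1000000. The cause was not tested for any of these.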
